A study of Mus musculus with 12 samples.

Results

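The genes described here encode the subunits of the proteasome in mouse dental epithelial colonies. They were chosen as all genes whose array accession mapped to a symbol of the form Psma, Psmb, Psmc, Psmd or Psme followed by a number, leaving out the immunoproteasome genes Psmb8 and Psmb9. The rule found 40 genes of 31064 tested, measured by 54 of 41174 non-control probes. All 40 passed the filter on dim probes, and for each of them the probe used was well above background on all 12 arrays.

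Total RNA came from 12 single colonies, labelled as dental stem cell colonies, grown in culture from dental epithelium, taken from labial cervical loops. These hold the stem cells that renew the growing mouse incisor. The 4 double null colonies lacked both Bmi1 and Ink4a/Arf (labelled Bmi1-;Ink4a/Arf-), the 4 Bmi1 null colonies lacked Bmi1 (labelled Bmi1-), and the 4 wild-type colonies carried neither deletion (labelled WT). All were of a mixed genetic background. Bmi1 is a Polycomb protein known for repressing Cdkn2a, the gene that encodes Ink4a and Arf. The labels give neither age nor the animal behind a colony, so the p-values below measure the spread between colonies, and Bmi1 null and double null colonies are both set against the same 4 wild-type arrays.

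The proteasome degrades proteins tagged with ubiquitin. Its 20S core is a barrel of alpha and beta rings, and the beta rings hold the proteolytic sites. The 19S regulatory particle caps the barrel: its base has ATPases that unfold the substrate, and its lid removes the ubiquitin chain. Other caps, the activators encoded by Psme genes, open the barrel without ATP. Replacement catalytic subunits serve antigen presentation, among them Psmb10, which interferon induces, and Psmb11, which is known from the thymic cortex.

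All values are levels, the log2 processed signal minus the 75th percentile of the array, and a change is a difference between mean levels. Arrays differed in the shape of their signal. The interquartile range of log2 signal was 4.16 to 4.93 on double null, 4.32 to 4.68 on Bmi1 null and 2.49 to 2.62 on wild-type arrays, and 74.8 to 87.6%, 77.2 to 84.4% and 90.7 to 96.9% of their probes were well above background. The 873 olfactory receptor genes, which are sensory genes, were examined as a gauge of dim signal. Against wild type, 872 were called lower in double null and 867 in Bmi1 null colonies (59.9% and 58.3% of all genes). The filter kept a probe well above background on at least 3 of 4 arrays of any genotype. Genes dim in the mutants could enter through wild type alone, so these counts are no independent test. The part of this difference between arrays in the results below was not tested. Bmi1 itself averaged -2.54 in double null, -2.36 in Bmi1 null and -0.27 in wild-type colonies, and both falls passed the test (limma adjusted p = 1.79e-06 and 3.96e-06). Relative to all genes the falls were -0.86 and -0.85, and the probe was well above background on 4 of 4 arrays of each mutant. Cdkn2a was well above background on 0 of 4 double null, 4 of 4 Bmi1 null and 0 of 4 wild-type arrays. The 8 epithelial markers examined, such as Krt14 and Trp63, were well above background on all 12 arrays.

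Proteasome subunit genes stood higher in both mutants than in wild type. Their median level was 2.81, 2.90, 3.12 and 3.19 on the double null arrays, 2.62, 2.49, 2.77 and 2.59 on the Bmi1 null arrays, and 0.72, 1.25, 0.98 and 1.54 on the wild-type arrays (replicates 1, 3, 4 and 5). Neither mutant overlapped wild type, and all double null arrays lay above all Bmi1 null arrays. The means were 3.0 ± 0.18 in double null, 2.62 ± 0.12 in Bmi1 null and 1.12 ± 0.35 in wild-type colonies (SD, n = 4 each). Over all genes tested the median level ran the other way, at -2.47 to -2.05 on double null, -2.26 to -1.99 on Bmi1 null and -1.06 to -0.999 on wild-type arrays. Relative to that median the 2 mutants overlapped. Double null replicate 1 (4.859) then lay below Bmi1 null replicates 1 (4.876) and 3 (4.895). On its own array the members' median lay at the percentile 94.5 to 95.1 of all genes in double null, 93.2 to 94.0 in Bmi1 null and 83.2 to 91.0 in wild-type colonies.

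**Figure D1:**
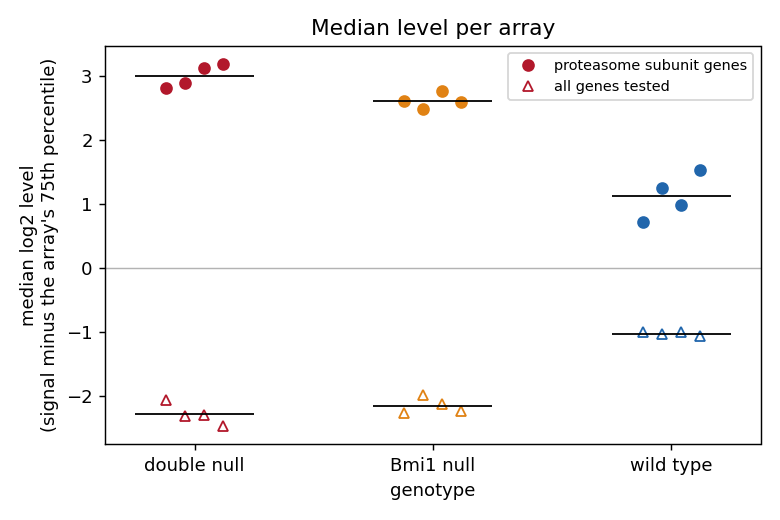
Median log2 level of the 40 proteasome subunit genes (filled circles) and of all 31064 genes tested (open triangles) on each of the 12 arrays, by genotype, with bars at the group means. The members' medians do not overlap between mutant and wild-type arrays, and the medians of all genes are lower on the mutant arrays.

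Against wild type, 38 of the 40 genes rose in double null colonies and 2 fell, in a test that called 25.5% of all genes higher and 59.9% lower. In Bmi1 null colonies 37 rose, 2 fell and 1 passed in neither direction, where 25.2% of all genes were called higher and 58.3% lower. The members' median change was 2.01 in double null and 1.64 in Bmi1 null colonies, and that of all genes was -1.41 and -1.24. Relative to all genes the median change was therefore 3.42 and 2.88. Among the 21931 genes well above background on all 12 arrays, 35.8% were called higher and 46.9% lower in double null, and 35.2% higher and 45.4% lower in Bmi1 null colonies. In 37 of the 40 genes every double null array lay above every wild-type array, and in 2 below (24.6% and 56.9% of all genes). Bmi1 null arrays likewise lay above wild type in 37 and below in 2 (23.8% and 56.3% of all genes). The same 2 genes, Psmb11 and Psme3, were called lower in each mutant.

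Most calls held under other scalings. The members' median change was smaller after quantile normalization and with the authors' values, and larger with arrays centred on their medians (3.04 in double null and 2.57 in Bmi1 null, against -0.38 and -0.31 for all genes). After quantile normalization, which forces all arrays to 1 distribution, 36 members were called higher and 3 lower in double null (34.1% and 38.7% of all genes). In Bmi1 null colonies 30 were called higher and 3 lower (33.9% and 38.4%), and the median changes of members were 1.34 in double null and 0.89 in Bmi1 null, against -0.13 and -0.14 for all genes. With the authors' processed values, 37 were called higher and 3 lower in double null (33.8% and 38.5% of all genes), and 32 and 3 in Bmi1 null colonies (33.5% and 38.2%). The median changes were then 1.30 and 1.10, against -0.07 and -0.08 for all genes. Against wild type, Psme4 was the 1 member whose change turned in sign under these scalings. With slide as a block 38 rose and 2 fell in double null (21.7% and 54.2% of all genes), and 37 and 2 in Bmi1 null colonies (24.1% and 57.2%). Within slide 2, which held 1 array of each genotype, the members' median change was 1.91 for double null and 1.36 for Bmi1 null, against -1.26 and -0.93 for all genes, and within slide 1 (2 Bmi1 null and 2 wild-type arrays) it was 2.04 against -1.43.

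A pair of other large housekeeping families was examined beside them. Over all genes, 25.5% were called higher in double null and 25.2% in Bmi1 null. Of 83 cytoplasmic ribosomal protein genes, 78 rose in double null and 77 in Bmi1 null colonies, and 3 fell in each, with median changes of 2.14 and 2.03. Of 82 oxidative phosphorylation genes, 72 and 73 rose and 7 and 6 fell, with median changes of 1.97 and 1.99. No test set these families against the proteasome genes. Markers of other cells moved too: the summed level of 6 immune markers, in linear units of the 75th percentile, was 0.576 to 1.08 on double null, 0.673 to 1.07 on Bmi1 null and 6.81 to 8.30 on wild-type arrays. That of 4 endothelial markers was 0.284 to 0.737, 0.277 to 0.432 and 1.42 to 1.80. All 6 immune and all 4 endothelial markers were called lower in each mutant, in tests that called 59.9% of all genes lower in double null and 58.3% in Bmi1 null. Relative to all genes the endothelial marker Tek changed by -0.02 in double null, and its change was 0.06 after quantile normalization and 0.22 with the authors' values. The immune marker Cd14 changed by -0.11 in double null and 0.23 in Bmi1 null relative to all genes. After quantile normalization its changes were -1.22 and -0.82. The immune markers included Ptprc, well above background on 2, 3 and 4 arrays of double null, Bmi1 null and wild type, and Adgre1, on 1, 2 and 4. The endothelial marker Cdh5 was well above background on 2, 3 and 4. The summed level of the 8 epithelial markers was 425 to 845, 431 to 622 and 130 to 402. That of 7 mesenchymal markers was 4.85 to 37.7, 4.20 to 9.15 and 9.91 to 12.5. Such sums weigh bright genes most, such as Krt14, whose mean level was 8.74, 8.60 and 7.44. All 8 epithelial markers were called higher in double null and 7 in Bmi1 null, where Krt8 did not pass (adjusted p = 0.244). Of the mesenchymal markers 1 was called higher and 2 lower in double null, and 1 and 3 in Bmi1 null. The part of other cells in the proteasome result was not tested, and in RNA of whole colonies fewer cells of a type and less RNA per cell cannot be told apart.

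**Figure D2:**
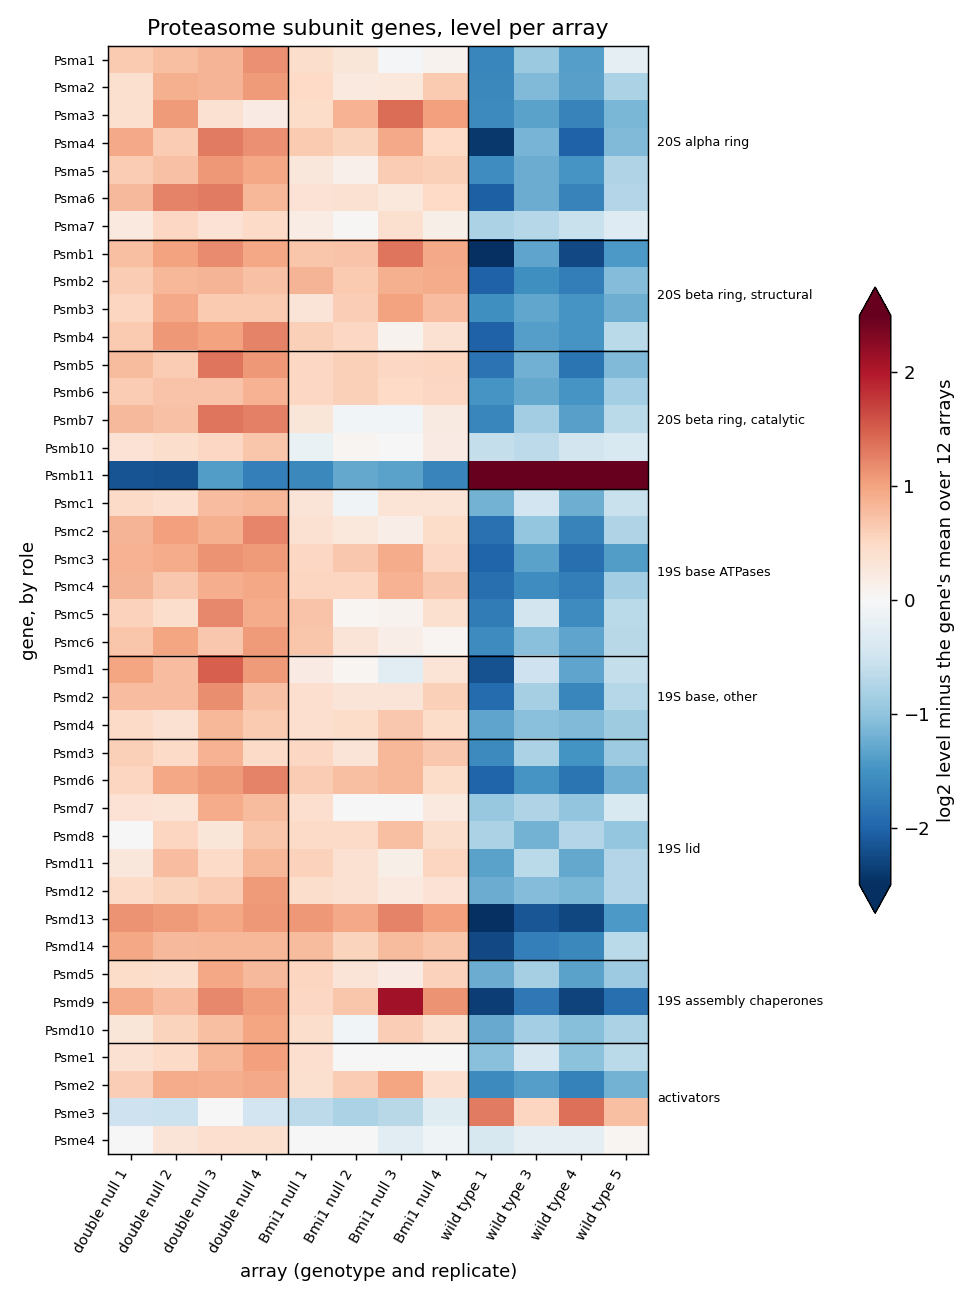
Log2 level of each of the 40 genes on each array minus the gene's mean over the 12 arrays, with genes ordered by role (rows) and arrays by genotype (columns). Mutant columns are red and wild-type columns blue for nearly all genes, with Psmb11 and Psme3 the other way round, and the colour scale ends at 2.5 in either direction.

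The alpha ring, whose subunits gate the entry to the barrel, was higher in both mutants. All 7 genes analysed (Psma1 to Psma7, without Psma8) were called higher in each mutant, as were 25.5% of all genes in double null and 25.2% in Bmi1 null. The median change was 2.02 in double null (range 0.99 to 2.68) and 1.67 in Bmi1 null colonies (0.78 to 2.37). Psma3 had levels of 4.07, 4.74, 4.05 and 3.88 in double null, 4.13, 4.54, 5.07 and 4.70 in Bmi1 null and 2.08, 2.35, 2.00 and 2.53 in wild-type colonies. Both mutants were above wild type without overlap, and the 2 mutants overlapped each other. Its change was 1.95 in double null and 2.37 in Bmi1 null (SE 0.25 each, adjusted p = 1.21e-05 and 2.68e-06). Psma7 had the smallest changes of the ring, 0.99 and 0.78, and was called in neither mutant after quantile normalization.

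The 4 structural subunits of the beta ring, Psmb1 to Psmb4, which carry no proteolytic site, rose in both mutants. Their median changes were 2.37 in double null and 2.24 in Bmi1 null, in tests that called 25.5% and 25.2% of all genes higher. Psmb1 had levels of 4.08, 4.34, 4.51 and 4.29 in double null, 4.02, 4.04, 4.66 and 4.28 in Bmi1 null and 0.77, 2.02, 1.08 and 1.89 in wild-type colonies. The wild-type arrays spread widely, with replicates 1 and 4 low and 3 and 5 high, and all lay far below the mutants. Its change of 2.86 in double null and 2.81 in Bmi1 null (SE 0.28, adjusted p = 1.26e-06 and 1.66e-06) corresponds to 7.28-fold and 7.02-fold.

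The catalytic subunits of the standard proteasome rose in both mutants. Psmb5, the chymotrypsin-like subunit, had levels of 4.25, 4.10, 4.79 and 4.55 in double null, 3.97, 4.06, 3.97 and 3.99 in Bmi1 null and 1.61, 2.25, 1.63 and 2.35 in wild-type colonies. No group overlapped another. Its change was 2.46 in double null and 2.03 in Bmi1 null (adjusted p = 7.18e-07 and 3.82e-06). Psmb6, the caspase-like subunit, had levels of 3.70, 3.77, 3.78 and 3.93 in double null, 3.59, 3.67, 3.56 and 3.59 in Bmi1 null and 1.60, 1.78, 1.60 and 2.21 in wild-type colonies. Again the 3 groups did not overlap, although the mutants lay close together. It changed by 2.00 and 1.80 (adjusted p = 6.11e-07 and 1.56e-06).

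Psmb7, the trypsin-like subunit, had levels of 4.43, 4.34, 4.95 and 4.88 in double null, 3.91, 3.54, 3.54 and 3.84 in Bmi1 null and 1.99, 2.75, 2.26 and 2.94 in wild-type colonies. It was highest on every double null array, intermediate in Bmi1 null and lowest in wild type. Its change against wild type was 2.17 in double null and 1.22 in Bmi1 null (SE 0.24, adjusted p = 3.80e-06 and 0.000464). After quantile normalization it was 1.11 in double null and 0.21 in Bmi1 null colonies, and the second no longer passed (adjusted p = 0.441).

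Psmb10 replaces Psmb7 in the immunoproteasome. It had levels of 1.50, 1.58, 1.65 and 1.83 in double null, 0.98, 1.19, 1.13 and 1.34 in Bmi1 null and 0.54, 0.49, 0.69 and 0.76 in wild-type colonies, again in 3 separate groups. The changes were 1.02 and 0.54 (adjusted p = 8.77e-05 and 0.00903). After quantile normalization the change was 0.58 in double null and 0.16 in Bmi1 null (adjusted p = 0.395 for the second), and with the authors' values the change in Bmi1 null was 0.27 (adjusted p = 0.239).

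Psmb11 went the other way by a wide margin. This beta5 subunit, known from epithelial cells of the thymic cortex, takes the place of Psmb5 there. Its level was -4.91, -4.92, -4.14 and -4.45 in double null, -4.36, -4.02, -4.09 and -4.40 in Bmi1 null and 0.67, 0.47, 0.57 and 0.67 in wild-type colonies. Wild-type arrays had an SD of 0.10 (n = 4) and stood far above every mutant array, and the probe was well above background on all of them. The change was -5.20 in double null and -4.82 in Bmi1 null (SE 0.21, adjusted p = 4.06e-09 and 5.48e-09), 36.8-fold and 28.2-fold lower. Relative to all genes it was -3.80 and -3.58, after quantile normalization -4.73 and -4.50, and with the authors' values -3.84 and -3.80. With another background correction, normexp, it was -3.32 in Bmi1 null, and the most negative change of any member in double null was -2.86. The fold therefore depends on the processing. The olfactory receptor genes, the gauge of dim signal, had median changes of -3.7 and -3.5. The other Psmb11 probe averaged -5.24 in wild type and was well above background on 3 wild-type arrays and no mutant array, so it gives no fold. Its measured changes were -1.95 and -2.58. In wild type the probe used averaged 0.60, far above the other probe. The 36.8-fold and 28.2-fold falls therefore rest on 1 of 2 discordant probes, and the source of the bright wild-type signal was not tested.

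Promoter sequence was examined for the antioxidant response element, the site through which Nfe2l1 and Nfe2l2 are known to act on proteasome genes, and for the CCAAT box. The windows were RefSeq promoters on GRCm38.p6 that run from 250 bases before to 50 after the gene start, and 34 of the 40 genes had one. The element was searched as TGACNNNGC and the box as CCAAT, each on both strands. The element was present in 6 of the 34 (17.6%), namely Psmb5, Psmb6, Psmc6, Psmd9, Psmd12 and Psme4, against 14.0% of all 27025 genes with a window. The box was present in 13 of 34 (38.2%), against 41.1% of genes. Most members that rose also lack the element, and a link between the element and the direction of change was not tested. Shown here, as examples only, are the 250 bases before the start of 3 genes that rose and whose element lies near the start. Psmb11, which fell and lacks the element, is shown as well. Psme4, whose element begins 7 bases before the start and runs past it, is not shown. Capitals mark the element, which begins 47 bases before the start in Psmb5, 9 in Psmb6 and 31 in Psmd9, and in Psmb11 the CCAAT box, 155 bases before the start. No element shown overlaps a CCAAT box. Psmb5 and Psmb11 lie next to each other on chromosome 14, with 0 protein-coding genes between them, and moved in opposite directions.
Psmb5 (chr14:54617996-54618245, minus strand): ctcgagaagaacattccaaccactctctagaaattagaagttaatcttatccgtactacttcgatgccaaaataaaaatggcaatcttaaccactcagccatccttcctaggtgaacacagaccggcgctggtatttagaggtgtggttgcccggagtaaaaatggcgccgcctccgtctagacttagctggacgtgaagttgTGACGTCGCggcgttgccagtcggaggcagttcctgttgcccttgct
Psmb6 (chr11:70525107-70525356, plus strand): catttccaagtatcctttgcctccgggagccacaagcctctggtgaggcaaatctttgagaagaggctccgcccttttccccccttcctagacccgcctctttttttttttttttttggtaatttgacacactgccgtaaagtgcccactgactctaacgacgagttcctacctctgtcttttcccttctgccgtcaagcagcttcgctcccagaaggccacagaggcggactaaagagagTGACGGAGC
Psmd9 (chr5:123227940-123228189, plus strand): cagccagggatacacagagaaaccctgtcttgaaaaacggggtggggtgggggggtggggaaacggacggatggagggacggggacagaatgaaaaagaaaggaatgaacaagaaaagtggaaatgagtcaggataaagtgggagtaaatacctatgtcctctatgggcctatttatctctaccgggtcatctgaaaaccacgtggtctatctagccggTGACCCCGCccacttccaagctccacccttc
Psmb11 (chr14:54625060-54625309, plus strand): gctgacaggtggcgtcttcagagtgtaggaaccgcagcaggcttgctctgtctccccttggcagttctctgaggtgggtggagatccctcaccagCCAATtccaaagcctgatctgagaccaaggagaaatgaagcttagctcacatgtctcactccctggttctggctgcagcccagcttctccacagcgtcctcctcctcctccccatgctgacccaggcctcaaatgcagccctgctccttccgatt

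All 6 ATPases of the base, Psmc1 to Psmc6, rose in each mutant, in tests that called 25.5% of all genes higher in double null and 25.2% in Bmi1 null. Their median changes were 2.16 in double null (range 1.48 to 2.65) and 1.55 in Bmi1 null colonies (1.08 to 2.32). After quantile normalization the change of Psmc5 in Bmi1 null was 0.38 and did not pass (adjusted p = 0.278). Psmc2 had levels of 3.71, 3.88, 3.74 and 4.07 in double null, 3.23, 3.12, 3.01 and 3.31 in Bmi1 null and 0.98, 1.89, 1.18 and 2.09 in wild-type colonies. The 3 groups did not overlap. It changed by 2.32 and 1.64 (adjusted p = 2.35e-06 and 4.79e-05). The other 3 base subunits rose as well: Psmd1 and Psmd2, the large scaffolds, and Psmd4, a ubiquitin receptor, had a median change of 2.13 in double null and 1.59 in Bmi1 null. Psmd1 had levels of 3.25, 3.04, 3.76 and 3.33 in double null, 2.47, 2.32, 2.00 and 2.62 in Bmi1 null and 0.10, 1.76, 0.95 and 1.67 in wild-type colonies. Its wild-type arrays had the largest spread of any member (SD 0.77), with replicate 1 lowest. The change was 2.22 in double null and 1.24 in Bmi1 null (SE 0.33, adjusted p = 4.15e-05 and 0.00392). After quantile normalization it was 1.52 in double null and 0.63 in Bmi1 null, and the second no longer passed (adjusted p = 0.165).

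All 8 lid genes were called higher in both mutants, as were 25.5% of all genes in double null and 25.2% in Bmi1 null. Their median changes were 1.77 in double null and 1.62 in Bmi1 null. Psmd7 no longer passed in Bmi1 null after quantile normalization (0.28, adjusted p = 0.243) or with the authors' values (0.28, adjusted p = 0.265). Psmd13 had levels of 2.64, 2.59, 2.49 and 2.61 in double null, 2.60, 2.47, 2.77 and 2.55 in Bmi1 null and -1.13, -0.61, -0.76 and 0.08 in wild-type colonies. All 8 mutant arrays lay within a narrow band and above every wild-type array. The change was 3.19 and 3.20 (SE 0.23, adjusted p = 1.23e-07 and 1.35e-07), 9.11-fold and 9.21-fold, and it was 3.21 and 3.26 after quantile normalization. Psmd14, the deubiquitinase of the lid, changed by 2.42 and 2.27. Psmd8 had the smallest change of the lid in double null, with levels of 0.53, 1.07, 0.84 and 1.23 in double null, 1.01, 1.01, 1.28 and 0.96 in Bmi1 null and -0.27, -0.66, -0.21 and -0.43 in wild-type colonies. It was above wild type on every mutant array, by 1.31 and 1.46.

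The assembly chaperones Psmd5, Psmd9 and Psmd10 join base subunits and leave the finished particle. All 3 rose, with median changes of 1.76 in double null and 1.49 in Bmi1 null (25.5% and 25.2% of all genes were called higher). Psmd9 had levels of 2.07, 1.90, 2.33 and 2.17 in double null, 1.66, 1.82, 3.23 and 2.25 in Bmi1 null and -1.21, -0.66, -1.19 and -0.76 in wild-type colonies. Bmi1 null replicate 3 was the highest, and no mutant array reached down to wild type. The change was 3.07 and 3.20 (SE 0.31, adjusted p = 1.37e-06 and 1.15e-06). The other Psmd9 probe changed by 0.37 and 0.26 (adjusted p = 0.0991 and 0.239), so the size depends on the probe.

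**Figure D3:**
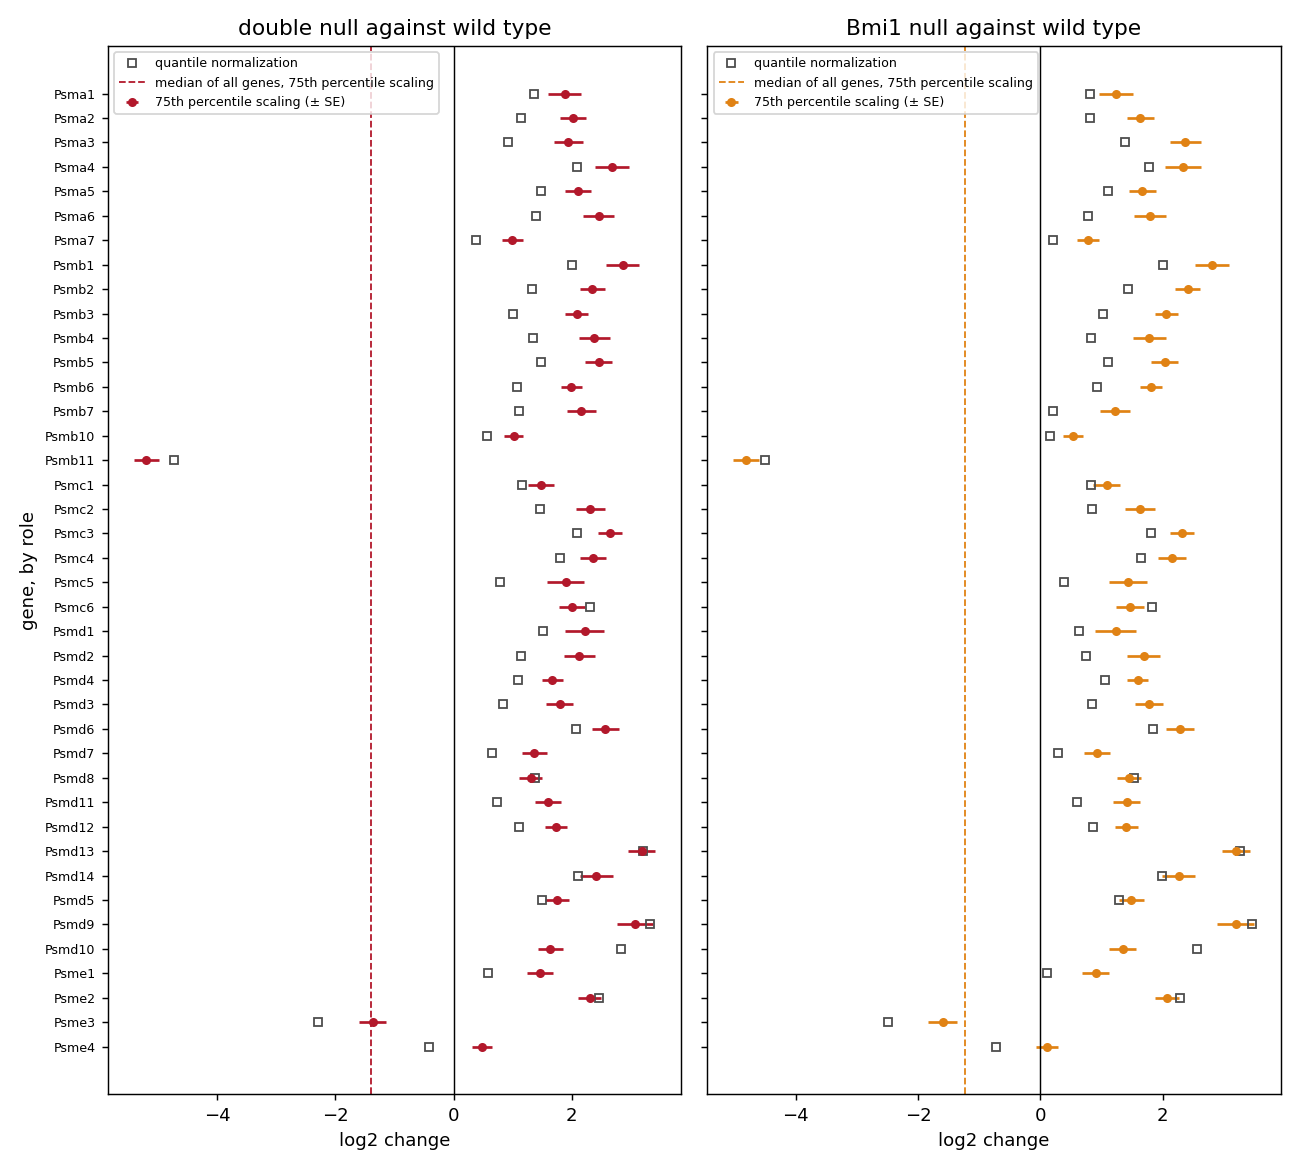
Log2 change of each of the 40 genes against wild type with its standard error (filled points), in double null (left) and Bmi1 null colonies (right), beside the change after quantile normalization (open squares) and the median change of all genes tested (dashed line, -1.41 and -1.24). The dashed line belongs to the filled points, and after quantile normalization the median of all genes was -0.13 and -0.14. Nearly all points lie to the right of 0 under either scaling, and nearly all filled points to the right of the dashed line. Psmb11 and Psme3 lie to the left of 0, and Psme4 lies right of 0 under the first scaling and left of it under quantile normalization.

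The activators did not move together. Psme1 and Psme2 form the interferon-induced PA28 cap. Psme1 had levels of 2.89, 2.97, 3.34 and 3.52 in double null, 2.92, 2.52, 2.49 and 2.52 in Bmi1 null and 1.45, 2.09, 1.47 and 1.83 in wild-type colonies. The mutants were above wild type, and Bmi1 null replicate 1 reached into the double null range. The change was 1.47 and 0.90 (adjusted p = 4.04e-05 and 0.00193), and after quantile normalization 0.58 and 0.10 (adjusted p = 0.686 for the second).

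Psme2 had levels of 1.37, 1.69, 1.66 and 1.70 in double null, 1.15, 1.40, 1.75 and 1.18 in Bmi1 null and -0.84, -0.61, -0.93 and -0.43 in wild-type colonies. Every mutant array was above every wild-type array. It changed by 2.31 and 2.07 (adjusted p = 4.33e-07 and 1.15e-06) at the probe used and by 0.60 in each mutant at the other. Mouse has a near-identical copy, Psme2b, so the source of the signal is uncertain.

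Psme3, which encodes the nuclear PA28gamma cap, had levels of 1.89, 1.87, 2.42 and 1.94 in double null, 1.76, 1.62, 1.71 and 2.11 in Bmi1 null and 3.70, 2.95, 3.79 and 3.16 in wild-type colonies. Every mutant array was below every wild-type array. The change was -1.37 and -1.60 (SE 0.23, adjusted p = 0.000122 and 3.75e-05). It was close to that of the median gene, at 0.04 and -0.36 relative to all genes, and with arrays centred on their medians the fall of 0.34 in double null did not pass (adjusted p = 0.228). After quantile normalization it was -2.30 and -2.48, and with the authors' values -2.39 and -2.60.

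Psme4 encodes PA200, a nuclear cap known for a role in DNA repair and in male germ cells. Its levels were 2.20, 2.52, 2.60 and 2.58 in double null, 2.20, 2.20, 1.91 and 2.09 in Bmi1 null and 1.79, 1.97, 1.97 and 2.24 in wild-type colonies. Both mutants overlapped wild type. The change of 0.48 in double null passed (SE 0.18, adjusted p = 0.0213), although not without double null replicate 3 (adjusted p = 0.0562) or wild-type replicate 1 (0.0635), and that of 0.11 in Bmi1 null did not (adjusted p = 0.576). Its sign turned under quantile normalization, to -0.41 (adjusted p = 0.045) and -0.72 (0.0019), and with the authors' values, to -0.58 and -0.92. The 2 other Psme4 probes rose by 2.65 and 2.19 in double null and 2.22 and 1.76 in Bmi1 null colonies. The direction for Psme4 therefore rests on the probe and the scaling.

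Of the 12 members with several probes, none had probes of opposite sign against wild type. In 6 of them the probes' changes differed by over 1 in double null (Psmb11, Psmd7, Psmd9, Psmd12, Psme2 and Psme4), and in Bmi1 null colonies also in Psmc5 and Psmd14, 8 in all.

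**Figure D4:**
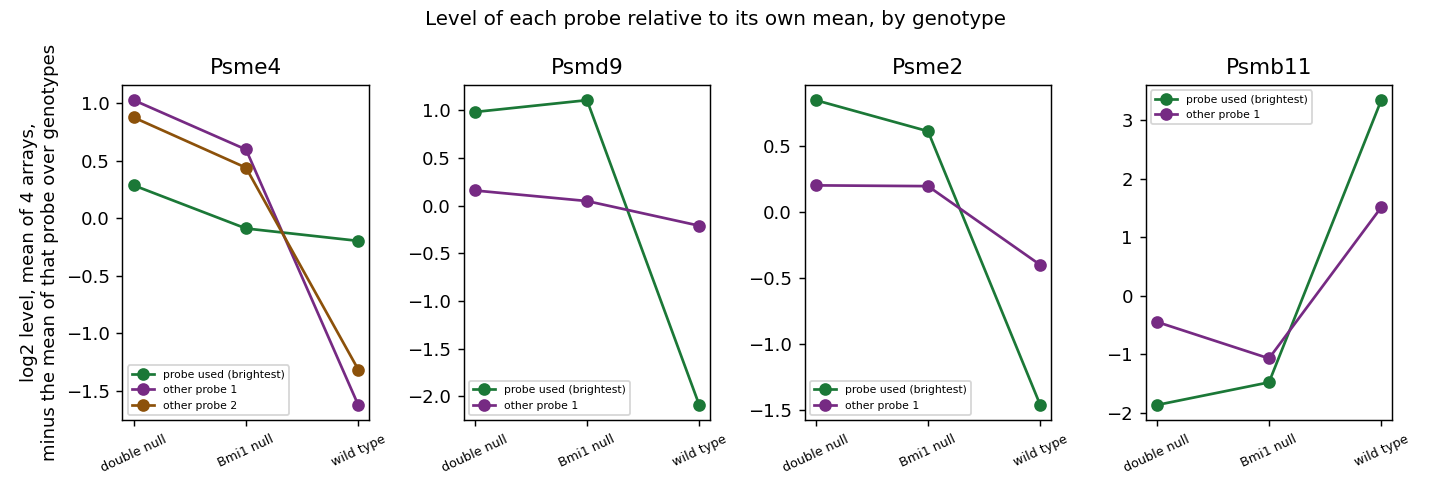
Mean log2 level of each probe of Psme4, Psmd9, Psme2 and Psmb11 in each genotype (n = 4 arrays each), minus the mean of that probe over the genotypes, with the probe used for the gene in green. Within a gene the probes move the same way between mutant and wild-type colonies by different amounts.

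Genes around the proteasome were examined as lists, in tests that called 25.5% of all genes higher in double null and 25.2% in Bmi1 null. Of the 5 factors that assemble the core particle (Psmg1 to Psmg4 and Pomp), all 5 rose in each mutant, with median changes of 1.57 in double null and 1.18 in Bmi1 null. Of 6 partners of the regulatory particle, all 6 rose, led by Adrm1, a ubiquitin receptor (2.67 and 2.99), Sem1, a small lid subunit (2.59 and 2.92), and Psmf1, an inhibitor of the core (2.39 and 2.24). All 6 genes of ubiquitin and its activation rose, among them Uba1, the main activating enzyme (2.69 and 2.75), and Uba6, the second activating enzyme (2.27 and 2.49). Of 8 genes that deliver substrates 7 rose in each mutant, among them Vcp, the segregase (2.85 and 2.52), Ubqln1, a shuttle receptor (2.65 and 2.50), and the Vcp cofactor Ufd1 (2.37 and 2.12). The eighth, Ubqln2, changed by 0.38 and -0.15 without passing. Its change depends on the scaling, at 2.88 and 2.29 after quantile normalization and 1.14 and 0.73 with the authors' values.

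The regulators and the interferon partners were mixed. Of all genes, 25.5% were called higher and 59.9% lower in double null, and 25.2% and 58.3% in Bmi1 null. Of 3 regulators, 2 rose and 1 fell in double null, and 1 rose and 0 fell in Bmi1 null colonies. Nfe2l2 rose by 1.76 in double null and 1.86 in Bmi1 null, and Nfe2l1, the regulator known to raise proteasome genes when the proteasome is inhibited, fell by 0.62 in double null (adjusted p = 0.0352) and changed by -0.31 in Bmi1 null (adjusted p = 0.264). Ngly1, which activates Nfe2l1, rose in double null (0.65, adjusted p = 0.03) and did not pass in Bmi1 null (0.42, adjusted p = 0.14). Its size depends on the scaling, at 2.29 and 2.04 after quantile normalization and 1.46 and 1.20 with the authors' values. Of the 8 immunoproteasome and interferon genes, 3 rose and 3 fell in double null, and 3 rose and 2 fell in Bmi1 null. Those that rose in both were Tapbp (2.18 and 2.24) and B2m (1.64 and 2.20), which serve class I antigen presentation. Tap1, a peptide transporter of the same pathway, fell by 0.45 in double null (adjusted p = 0.0492) and rose by 0.98 in Bmi1 null. Psmb9 fell by 1.22 in double null and by 1.18 in Bmi1 null, and Irf1, an interferon-induced transcription factor, fell by 0.76 and by 0.91. Psmb8 changed by 0.75 in double null (adjusted p = 0.0469) and by -0.14 in Bmi1 null (adjusted p = 0.695). Relative to all genes these falls turned positive. Psmb9 changed by 0.19 in double null and 0.06 in Bmi1 null, Nfe2l1 by 0.79 and 0.93, Irf1 by 0.65 and 0.33, and Tap1 by 0.96 in double null. After quantile normalization they stayed negative, at -1.27 and -1.24 for Psmb9, -0.92 and -0.65 for Nfe2l1, -1.20 and -1.33 for Irf1, and -0.44 for Tap1 in double null. Differences between the interferon-induced subunits were not tested.

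Double null and Bmi1 null colonies were also compared directly. Of the 40 genes 1 was called higher in double null and 0 lower, where 2.75% of all genes were called higher and 4.8% lower. At an unadjusted p under 0.05, 9 were higher and 0 lower (8.36% and 13.5% of all genes). The members' median change was 0.31, against -0.07 for all genes, and 34 of 40 had a positive change, against 44% of all genes. The sign of 7 members, Psmb1, Psmb2, Psmb3, Psmb11, Psmd3, Psmd4 and Psmd13, turned under at least 1 other scaling or background correction. In 15 of 40 every double null array lay above every Bmi1 null array, against 6.35% of all genes, and in 0 every array lay below (7.43%). With slide as a block, 0 members were called (0.315% of all genes higher and 0.634% lower). The 15 without overlap were Psma1, Psma5, Psma6, Psmb4, Psmb5, Psmb6, Psmb7, Psmb10, Psmc1, Psmc2, Psmd1, Psmd2, Psmd12, Psmd14 and Psme4. The members' median change within slide 2 was 0.48 (1 array each), positive in 37 of 40, and within slide 4 it was 0.23 (2 double null arrays and 1 Bmi1 null array), positive in 28 of 40. With normexp background correction it was -0.10 relative to all genes, against 0.38 under the main setting.

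The gene called was Psmb7, whose levels are given above. Every double null array was above every Bmi1 null array, and the change was 0.94 (SE 0.24, adjusted p = 0.0339), 1.92-fold. It was also the 1 member called after quantile normalization (0.90, adjusted p = 0.0478, with 1.69% of all genes higher and 2.74% lower) and with the authors' values (0.83, adjusted p = 0.0355, with 3.06% and 3.22%). The call ended with normexp background correction (0.77, adjusted p = 0.0986), with slide as a block (1.11, adjusted p = 0.108) and in a fit of the 2 mutants alone (0.94, adjusted p = 0.0574). It also ended when Bmi1 null replicate 2, 3 or 4, double null replicate 3 or 4, or wild-type replicate 4 was left out, with adjusted p between 0.0322 and 0.0989 over the 12 arrays left out in turn. Within slide 2 the change was 1.41 and within slide 4 it was 1.11.

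Psmd1 had the largest change, 0.99 (SE 0.33, adjusted p = 0.0962), and passed when wild-type replicate 1 was left out (adjusted p = 0.0381). Psmc2 followed Psmb7 with 0.68 (SE 0.25, adjusted p = 0.12). Psmb10, the replacement for Psmb7, changed by 0.48 (adjusted p = 0.107). The other end was held by Psma3 (-0.42, adjusted p = 0.363), Psmb11 (-0.39, adjusted p = 0.309) and Psmd8 (-0.15, adjusted p = 0.734), in which the mutants overlapped. By role the median change was 0.38 in the alpha ring, 0.04 in the structural and 0.43 in the catalytic beta subunits, 0.43 in the ATPases, 0.45 in the other base subunits, 0.17 in the lid, 0.27 in the chaperones and 0.30 in the activators. Outside the subunits, Psmg4, a core assembly factor, was called higher (0.92, adjusted p = 0.0411) and Tap1 lower in double null (-1.43, adjusted p = 0.00156). None of the 83 ribosomal protein genes was called, and their median change was 0.13.

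**Figure D5:**
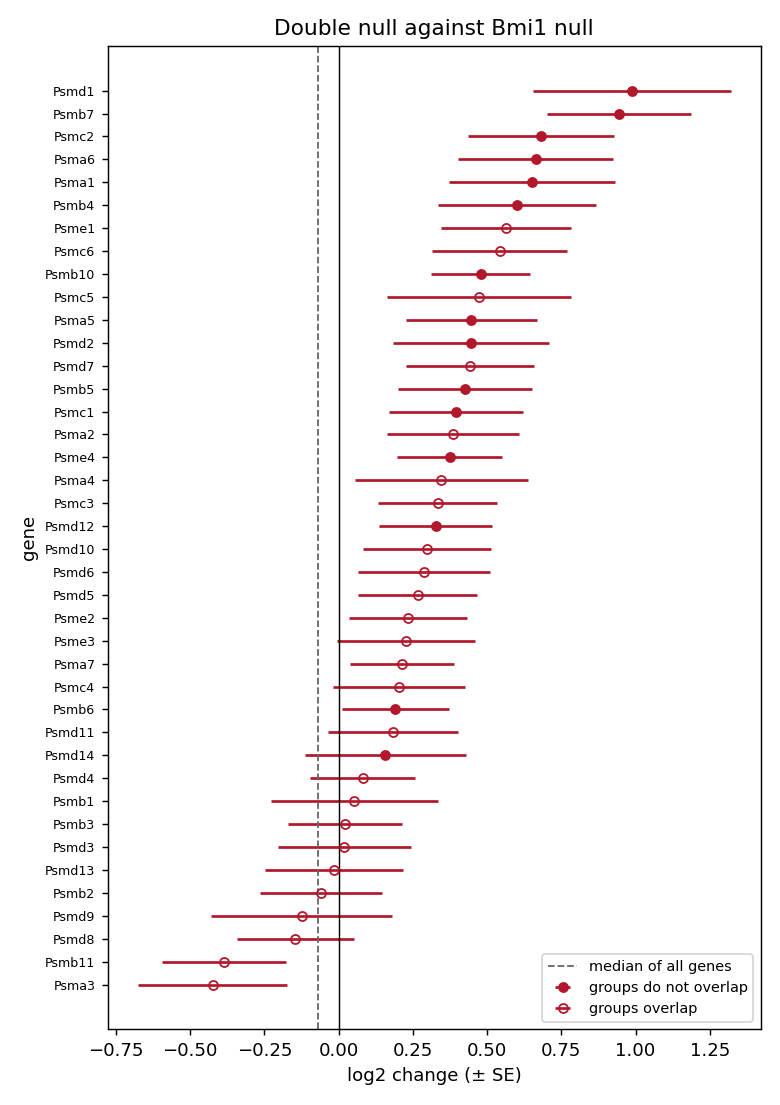
Log2 change of each of the 40 genes in double null against Bmi1 null colonies with its standard error, sorted by size, filled where the 4 arrays of each genotype do not overlap. The points run from -0.42 to 0.99, most lie right of the dashed line at the median of all genes (-0.07), and filled points lie on the right side only.

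The spread among colonies of 1 genotype differed for these genes. Their median SD was 0.21 in double null, 0.20 in Bmi1 null and 0.36 in wild-type colonies, whereas over all genes it was 0.40, 0.41 and 0.25. The wild-type arrays on slide 1 (replicates 1 and 4) had the lower members' medians, 0.72 and 0.98, and those on slides 2 and 3 the higher, 1.25 and 1.54. The part of the slide in this was not tested.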

How the data were processed

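Each file is the scanner output of 1 array, which the authors made with Feature Extraction 10.7.3.1, per the file headers. The RNA was amplified and labelled with Cy3, per the labels' protocols. The deposited processed signal is a background-subtracted intensity. A deposited table of the authors holds processed values on a log2 scale (column medians 7.21 to 7.24). The labels do not say how these columns were normalized, and the table served as an alternative.

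The intensity was log2-transformed and each array's 75th percentile subtracted, leaving out control spots and spots marked as outliers. These were 55 to 132 on 11 arrays and 1336 on double null replicate 1. No spot was saturated. Probes well above background on at least 3 of 4 arrays of a genotype were kept (39338). The probe with the highest mean stood for a gene. Of 41174 probes 24844 matched 1 symbol of a RefSeq table of GRCm38.p6, 0 several and 16330 none. All 12 arrays entered 1 fit with a mean per genotype (limma 3.58.1, lmFit then eBayes, run in R 4.3.3), which left 9 residual degrees of freedom. Calls were made at a Benjamini-Hochberg adjusted p under 0.05 over the 31064 genes. The fit was tested on simulated data with few changed genes and no difference in shape between arrays. That test does not cover the difference in signal shape seen here. The number of arrays limits the precision.

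Values on every array are given for the catalytic subunits, the activators, the 3 largest and 3 smallest changes of each comparison and members called between mutants. For up to 3 called genes per pathway list, and others singled out after their values were seen, the changes are given. Members, lists and tests were chosen with earlier results of these data known. Alternatives were median, quantile and the authors' scaling, normexp (offset 50, on the median spot signal, as the planned mean was not in the files), the filter on dim probes, the mean of a gene's probes, slide or replicate blocks, fits of 2 genotypes and leaving out each array. A planned comparison of subunit proteins was not run. The values of 1 pathway gene are not reported here.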

Additional observations from a re-analysis of the deposited data

Results flagged for a closer look

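In 4 of 51 groups of 4 arrays examined, 1 array stood apart from the other 3 by most of the group's range, where chance gives about 1 in 20 such groups. Double null replicate 1 was the lowest of its genotype for Psme2 (1.37) and double null replicate 3 the highest for Psme3 (2.42). Bmi1 null replicate 1 was the highest of its genotype for Psme1 (2.92) and Bmi1 null replicate 3 the highest for Psmd8 (1.28). No wild-type array was among them.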

How the results depend on the processing

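Member counts against wild type held within 1.5 times under every alternative, except that 1 gene was called lower in double null with median centring, against 2. Median changes relative to all genes moved more. For double null (3.42) they were 1.47 after quantile scaling, 1.37 with the authors' values, 2.37 with normexp and 2.40 with genes well above background on all 12 arrays. For Bmi1 null (2.88) they were 1.02, 1.18, 2.65 and 1.94, and 3.47 within slide 1 and 2.29 within slide 2. Psme4 reversed in double null (-0.41) and Bmi1 null (-0.72) after quantile normalization, and likewise with the authors' values (-0.58 and -0.92). Between mutants, 0 members were called higher with normexp, slide as a block, the replicate block or the 2 genotypes alone, and the relative median was -0.10 with normexp. Leaving out each array gave 37 to 38 higher, 2 to 2 lower and a relative median of 3.25 to 3.62 for double null, 37 to 37, 2 to 2 and 2.69 to 3.08 for Bmi1 null, and 0 to 2, 0 to 0 and 0.25 to 0.50 between mutants. The cause of these shifts was not tested. Over all genes, calls higher and lower in double null were 7936 and 18614, against 11401 and 13329 with median centring, 10585 and 12027 with quantile scaling, 10511 and 11957 with the authors' values, 7859 and 10285 with the stricter filter and 7292 and 11168 with normexp. In Bmi1 null they were 7820 and 18117, against 11457 and 12989, 10519 and 11929, 10395 and 11874, and 7719 and 9950 under the first 4 of these. Between mutants they were 855 and 1492, against 524 and 852 with quantile normalization, 596 and 462 with normexp, 98 and 197 with slide as a block, 507 and 885 with the replicate block and 347 and 622 with 2 genotypes alone. The replicate numbers were not treated as pairs. Of 10 same-number pairs 3 correlated above 0.1, from -0.15 to 0.22, and so few arrays cannot settle whether the numbers pair the samples. With the replicate block the counts of members called higher against wild type stayed at 38 and 37.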
